A study of Homo sapiens with 4 samples.

Results

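The 48 genes described here carry a cell through mitosis: the spindle checkpoint, the mitotic kinases and cyclins, the ubiquitin ligase that ends mitosis, the kinetochore, the spindle motors and condensin I. They were chosen by symbol from a list of such genes, with no measured value in the rule, and all 48 were found among the 23622 genes of the deposited table. Earlier results of these data were known when the list was chosen, so it is not independent of them. RNA had been sequenced from MV4-11, a human acute myeloid leukemia cell line with myelomonocytic features, in 2 libraries labelled NC and 2 labelled sh-IRF1. The sh-IRF1 cells carried a lentiviral pLKO.1 hairpin against IRF1, a transcription factor of the interferon response, and infected cells were selected with puromycin before use. The sample labels give NC no treatment, while the columns of the deposited table and the study's text name this group sh-NC, a control hairpin. The labels do not say which hairpin is behind each sh-IRF1 library or whether the replicates came from separate cultures, so p-values measure only the spread between these libraries.

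In mitosis CDK1 bound to a B-type cyclin drives chromosome condensation and spindle assembly, and each pair of sister chromatids is held until its kinetochores are attached to spindle microtubules. Unattached kinetochores feed the spindle checkpoint, which keeps CDC20 from activating the anaphase-promoting complex (APC/C). Once the checkpoint is silenced, the APC/C marks securin and cyclin B for destruction and separase opens the cohesin rings. These genes are transcribed mostly late in the cell cycle, and many of them are known to depend on the cell-cycle homology region (CHR) bound by the MuvB complex with FOXM1 or MYBL2, and on CCAAT boxes bound by NF-Y.

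The libraries held 17635908 and 17651512 reads in NC and 17697836 and 18695337 reads in sh-IRF1. Values are normalized counts, the reads of a gene divided by 1 size factor per library, and fold changes are sh-IRF1 against NC on log2(normalized count + 1). IRF1 itself was listed at 785 and 738 in NC and at 430 and 432 in sh-IRF1, so that 56.6% of the NC mean remained (log2 fold change -0.82, SE 0.0904, adjusted p = 1.69e-10, limma). Other annotated genes cover 22.9% of its exonic bases, and the largest partner is the antisense gene IRF1-AS1. All 8 myelomonocytic markers were present, and their summed normalized count was 31335 and 31204 in NC and 27531 and 27349 in sh-IRF1. Most of that sum was FLT3, at 17391 and 17412 in NC and 12745 and 12634 in sh-IRF1, and the markers did not move together. PTPRC, FLT3 and MPO fell (log2 fold changes -0.48, -0.46 and -1.42, adjusted p at most 2.15e-12, limma), LYZ and SPI1 rose (0.85 and 0.17, adjusted p at most 6.46e-05), and CD33, HOXA9 and MEIS1 did not pass the test. Of the markers of other cells, 0 of 3 for T cells were listed, 1 of 3 for erythroid cells, 2 of 3 for B cells and 2 of 4 for epithelial cells. Their summed normalized counts in NC were 27.7 and 28.8 for erythroid cells, 84.1 and 112 for B cells and 343 and 254 for epithelial cells. In sh-IRF1 the sums were 11.9 and 10.3 for erythroid cells, 235 and 289 for B cells and 392 and 362 for epithelial cells. CD79A, a part of the B cell receptor, was at 50.3 and 43.1 in NC and at 190 and 250 in sh-IRF1. The part of these marker differences in the results below was not tested.

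Of the 48 mitotic genes, 25 passed the test in neither direction, 18 (37.5%) fell and 5 (10.4%) rose in the sh-IRF1 libraries at an adjusted p under 0.05 by limma, while the same test called 42.2% of all 14120 genes tested, 21.9% lower and 20.3% higher. All 48 passed the filter on low values. BUB3, CCNB2, CCNA2, SMC4 and PLK1 had the lowest log2 fold changes, from -0.51 to -0.31, and MAD1L1, SPC24, FOXM1, CDC25B and MKI67 were the genes that rose. When each library was scaled to its total count instead, 14 genes were lower and 8 were higher. That scaling called 6078 of 14182 tested genes in either direction and moved the median log2 fold change of all genes to 0.043. Shares of all genes by direction were not computed under it.

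Changes were small. Only BUB3 fell beyond a log2 fold change of 0.5 and only MAD1L1 and SPC24 rose beyond it, against 7.56% of all tested genes lower and 8.27% higher by that rule. BUB3 was within that limit without NC replicate 2 (-0.49) or with total-count scaling (-0.47), CCNB2 went past it without NC replicate 1 (-0.53), and SPC24 was within it without sh-IRF1 replicate 2 (0.45). The median log2 fold change was -0.073 over the 48 genes and -0.0019 over all genes tested, and the 48 ranged from -0.51 to 0.62. Both sh-IRF1 libraries lay below both NC libraries for 25 genes and above them for 8, where 35.0% and 34.2% of all tested genes did so. The 48 genes are abundant, with a median NC level of 2087 normalized counts against 409 over all tested genes, and their median SE was 0.0522 against 0.108, so smaller changes could pass the test. In bulk RNA, fewer cells in mitosis and less of these transcripts per cell cannot be told apart.

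Together the 48 genes summed to 133861 and 134572 normalized counts in NC and to 124929 and 124451 in sh-IRF1. As a share of all reads they took 0.740% and 0.742% of the NC libraries and 0.710% of each sh-IRF1 library. Both sh-IRF1 sums therefore lay below both NC sums, but an exact two-sided permutation test of 2 libraries against 2 cannot give a p below 0.33. For 8 of the 48 genes over 10% of the exonic bases are shared with other annotated genes. Without them 15 of 40 (37.5%) fell and 3 of 40 (7.5%) rose, against 21.9% and 20.3% of all tested genes. The use of strand in counting is not given in the sources used here, so reads of a gene and of an antisense partner could not be told apart.

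**Figure D1:**
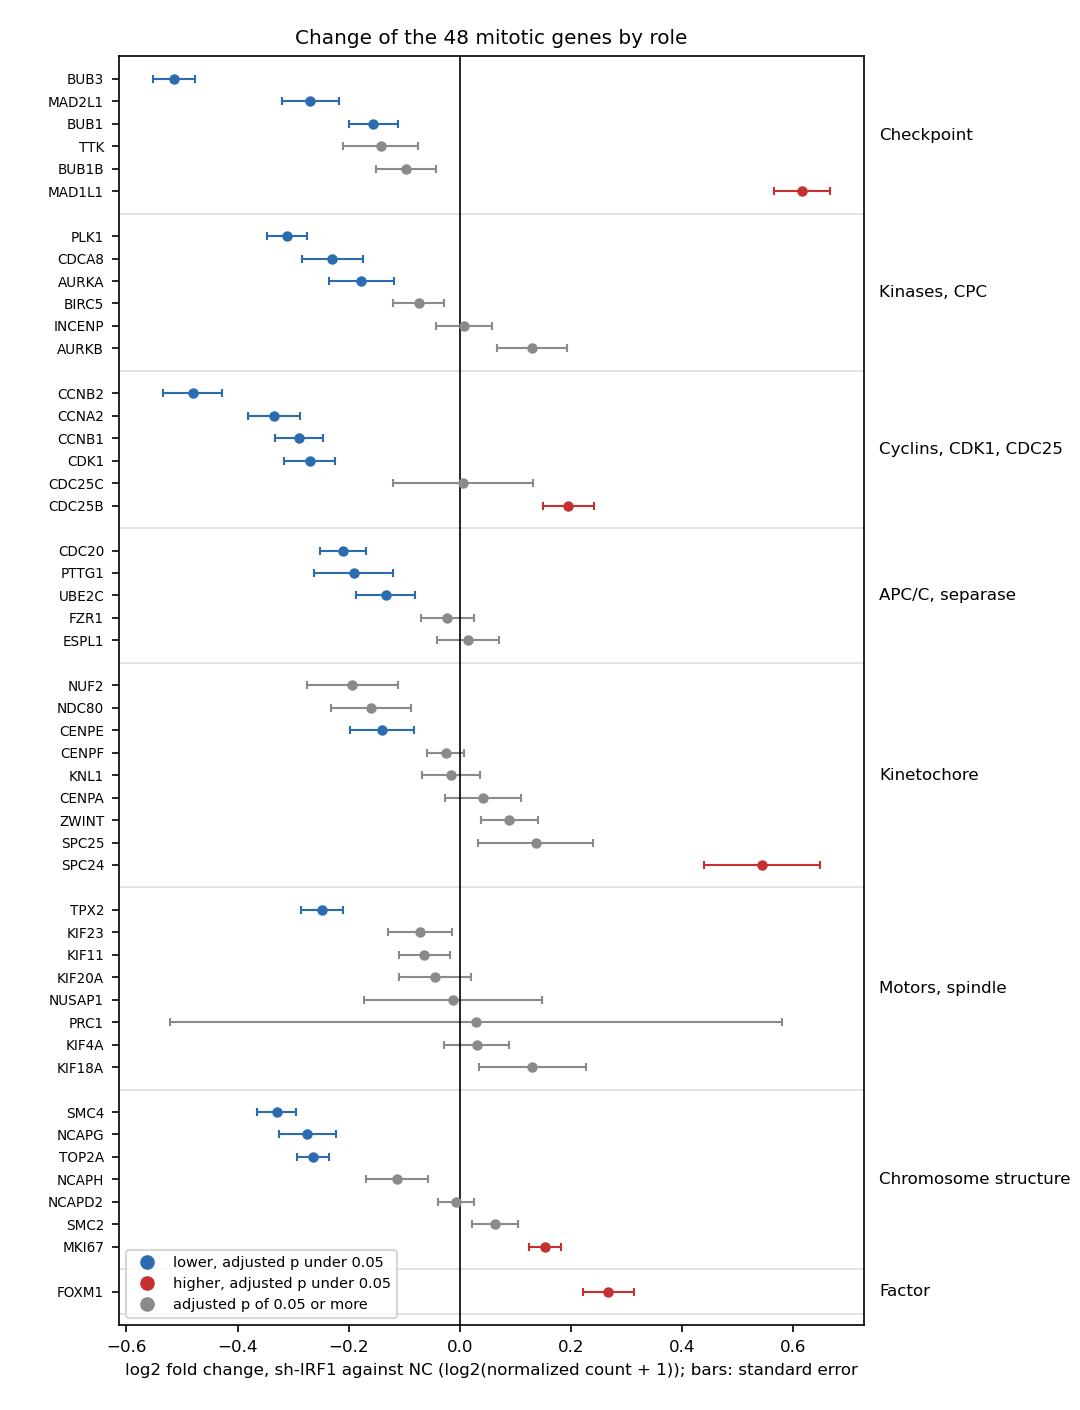
Log2 fold change of each of the 48 genes, sh-IRF1 against NC on log2(normalized count + 1), ordered within roles (horizontal axis, log2 units). Points are limma estimates from 2 libraries a group and bars are standard errors; blue marks the 18 genes that fell, red the 5 that rose and grey the 25 that passed neither way.

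RefSeq promoter windows were at hand for 40 of the 48 genes; those of BUB3, TTK, AURKA, BIRC5, UBE2C, KNL1, TPX2 and FOXM1 were not. The CHR was searched as TTTGAA or TTCGAA and the CCAAT box as CCAAT, on both strands, in the 250 bases before the RefSeq start (GRCh38.p14). A CHR match was in 22 of 40 windows (55%), against 14.6% of all 27305 promoters and 9.74% of those of tested genes, and a CCAAT match in 29 of 40 (72.5%), against 33.0% and 34.8%. The 7 windows shown are those of the genes that the naming rule gives with every library (the genes with an absolute log2 fold change of at least 0.3 that passed, and the smallest p per direction within a role) and that have at most 30 bases in an annotated exon, so that genes that fell, rose or did not pass the test can be read side by side. They run 5′ to 3′ along the gene's strand up to the base before its start, with CHR matches (TTTGAA, or TTCAAA on the other strand) and CCAAT matches (CCAAT, or ATTGG on the other strand) in capitals.
CCNB2 (fell; chr15:59104896-59105145, plus strand): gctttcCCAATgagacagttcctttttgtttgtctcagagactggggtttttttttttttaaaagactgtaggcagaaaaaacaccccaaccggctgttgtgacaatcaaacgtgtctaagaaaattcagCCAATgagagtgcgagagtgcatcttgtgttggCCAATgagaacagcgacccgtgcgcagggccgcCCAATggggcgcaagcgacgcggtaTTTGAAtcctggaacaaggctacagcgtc
CCNA2 (fell; chr4:121823884-121824133, minus strand): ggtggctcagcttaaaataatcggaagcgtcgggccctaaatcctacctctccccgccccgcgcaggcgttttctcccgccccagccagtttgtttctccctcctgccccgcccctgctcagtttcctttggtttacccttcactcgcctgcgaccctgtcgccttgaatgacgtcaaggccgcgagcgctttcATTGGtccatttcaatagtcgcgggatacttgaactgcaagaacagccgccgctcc
CDC20 (fell; chr1:43358731-43358980, plus strand): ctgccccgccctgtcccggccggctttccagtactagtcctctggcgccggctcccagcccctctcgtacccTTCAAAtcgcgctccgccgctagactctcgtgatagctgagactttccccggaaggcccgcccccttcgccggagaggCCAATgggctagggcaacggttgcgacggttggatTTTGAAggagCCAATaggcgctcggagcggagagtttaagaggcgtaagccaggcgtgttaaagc
MKI67 (rose; chr10:128126424-128126673, minus strand): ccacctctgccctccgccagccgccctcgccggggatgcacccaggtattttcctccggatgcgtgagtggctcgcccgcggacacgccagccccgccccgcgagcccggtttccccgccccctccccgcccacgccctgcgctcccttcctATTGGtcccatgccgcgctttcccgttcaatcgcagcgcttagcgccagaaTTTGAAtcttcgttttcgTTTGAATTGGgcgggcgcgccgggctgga
SPC24 (rose; chr19:11155783-11156032, minus strand): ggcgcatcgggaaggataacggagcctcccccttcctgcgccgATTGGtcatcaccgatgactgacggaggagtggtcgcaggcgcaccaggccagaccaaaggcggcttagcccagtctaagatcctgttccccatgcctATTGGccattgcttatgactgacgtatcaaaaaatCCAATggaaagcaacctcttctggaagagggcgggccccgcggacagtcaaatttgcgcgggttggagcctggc
ESPL1 (not called; chr12:53268049-53268298, plus strand): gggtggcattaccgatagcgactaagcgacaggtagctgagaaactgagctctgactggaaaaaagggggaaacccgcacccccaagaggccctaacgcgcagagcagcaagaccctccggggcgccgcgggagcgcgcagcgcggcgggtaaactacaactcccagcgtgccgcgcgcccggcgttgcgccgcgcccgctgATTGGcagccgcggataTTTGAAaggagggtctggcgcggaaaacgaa
AURKB (not called; chr17:8210226-8210475, minus strand): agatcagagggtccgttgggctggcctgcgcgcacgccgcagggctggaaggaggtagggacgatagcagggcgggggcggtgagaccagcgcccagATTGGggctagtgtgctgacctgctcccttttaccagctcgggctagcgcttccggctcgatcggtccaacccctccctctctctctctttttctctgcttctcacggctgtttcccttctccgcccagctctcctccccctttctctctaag

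In the CCNB2 window the CHR match begins 29 bases before the start, with the nearest of 4 CCAAT matches at 54 bases. The ESPL1 window has the same arrangement, at 31 and 48 bases. MKI67, which rose, has a CHR match at 29 bases that overlaps a CCAAT match beginning at 24 bases by 1 base. SPC24, which rose, and CCNA2, which fell, hold CCAAT matches without a match of TTTGAA or TTCGAA, the only CHR letters searched. By these letters a CHR match stood in 8 of 14 windows of genes that fell, in 1 of 4 that rose and in 13 of 22 that were not called. Within 100 bases of the start the counts were 6 of 14, 1 of 4 and 10 of 22, where 4.94% of all promoters had one. CCAAT matches were in 11 of 14, 2 of 4 and 16 of 22. The E-box CACGTG was in 4 of 40 windows (10%), against 6.49% of all promoters and 9.10% of those of tested genes. A match is only a match of letters, and its absence refers to these windows and to the letters searched. Near forms, such as cttgaa in the CCNA2 window, were not counted. Windows that lie wholly in annotated exons, such as those of PLK1 and SMC4, were counted with the others. A link between matches and outcome was not tested.

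**Figure D2:**
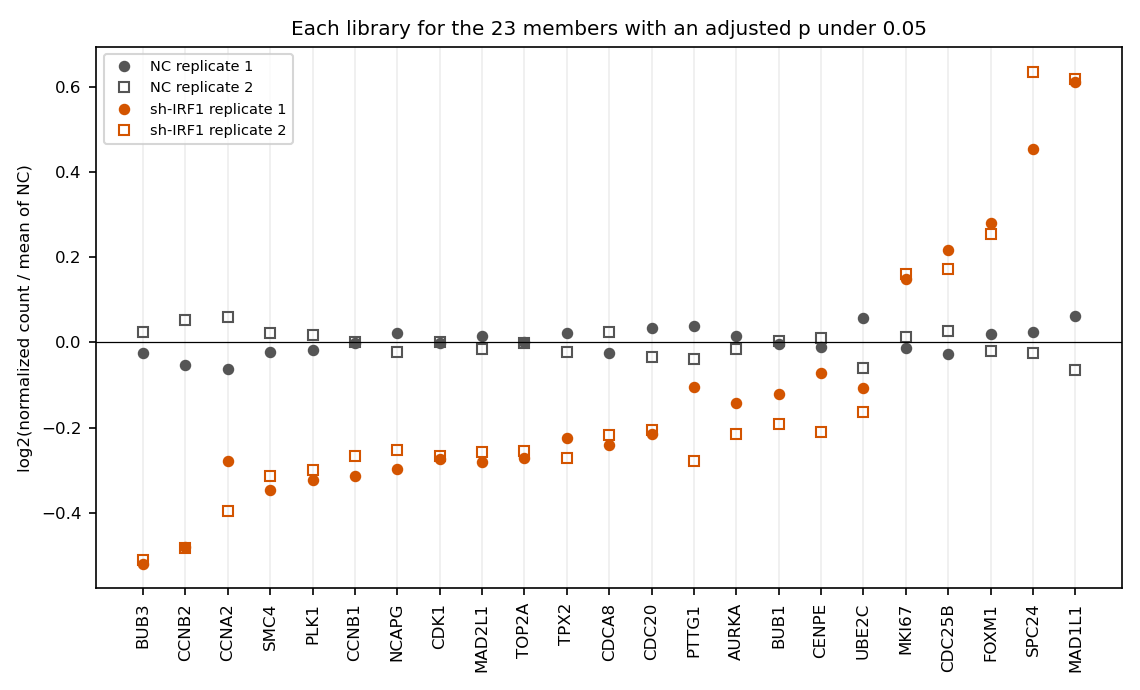
Each library's log2 ratio to the NC mean (vertical axis, log2 units of normalized count) for the 23 genes with an adjusted p under 0.05, ordered by fold change; grey symbols are the 2 NC libraries and orange symbols the 2 sh-IRF1 libraries. For each of these genes the sh-IRF1 libraries lie on 1 side of both NC libraries, from BUB3 at the left to MAD1L1 at the right. The genes were selected by p in these same libraries, so this separation is no further support.

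The spindle checkpoint genes were split. BUB3, BUB1 and MAD2L1 fell, MAD1L1 rose, and BUB1B and TTK did not pass the test, with a median log2 fold change of -0.15 over the 6. BUB3 (ENSG00000154473, chromosome 10 from 123154402 to 123170467 in GENCODE 44), the adaptor that brings the BUB1 and BUBR1 kinases to kinetochores, had normalized counts of 5318 and 5502 in NC and 3775 and 3796 in sh-IRF1. The groups were far apart for this gene, which was left at 70.0% of its NC mean (log2 fold change -0.51, SE 0.038, adjusted p = 8.35e-16, limma). Dropping any single library moved this fold change only between -0.54 and -0.49.

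MAD1L1 encodes MAD1, which recruits MAD2 to unattached kinetochores. The gene was at 1834 and 1680 in NC and at 2685 and 2696 in sh-IRF1, a rise to 153% of the NC mean (log2 fold change 0.62, SE 0.0508, adjusted p = 3.13e-14, limma). Both sh-IRF1 libraries were above both NC libraries, but 43.2% of its exonic bases are shared with other annotated genes. The largest overlap is with a same-strand transcript, ENSG00000286192, which is not listed in the deposited table, so the source of these reads is uncertain. MAD2L1, which encodes the MAD2 partner itself, was at 2086 and 2044 in NC against 1699 and 1729 in sh-IRF1 (log2 fold change -0.27, adjusted p = 3.20e-05, limma). Within each library the ratio of MAD1L1 to MAD2L1 counts was 0.879 and 0.822 in NC and 1.58 and 1.56 in sh-IRF1. The 2 genes of this pair thus moved in opposite directions.

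BUB1, the kinase that marks the centromere and docks checkpoint proteins, fell by less, from 3147 and 3158 to 2900 and 2761 (log2 fold change -0.16, adjusted p = 0.00329, limma), and did not pass without sh-IRF1 replicate 2 (-0.12, adjusted p = 0.0979). TTK, the kinase MPS1 that starts checkpoint signalling, had a log2 fold change of -0.14 (adjusted p = 0.0837) without overlap between the groups. BUB1B, which encodes BUBR1 of the mitotic checkpoint complex, had -0.096 (adjusted p = 0.15) with overlap.

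Among the mitotic kinases and the chromosomal passenger complex, PLK1, CDCA8 and AURKA fell and BIRC5, INCENP and AURKB did not pass the test. PLK1 (chromosome 16 from 23677656 to 23690367), the polo-like kinase of mitotic entry and spindle maturation, was at 5795 and 5944 in NC and at 4692 and 4766 in sh-IRF1. This left 80.6% of the NC mean (log2 fold change -0.31, SE 0.0361, adjusted p = 6.61e-10, limma), with the groups well separated. Other annotated genes cover 12.8% of its exonic bases, and the largest partner, which is antisense, had at most 1.03 normalized counts in any library.

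The Aurora kinases differed in direction of their estimates. AURKA, the kinase of centrosomes and spindle poles, had a log2 fold change of -0.18 (adjusted p = 0.0118, limma), a call that was lost without sh-IRF1 replicate 2 (-0.14, adjusted p = 0.143) or NC replicate 1 (-0.16, adjusted p = 0.0614), and with total-count scaling (-0.13, adjusted p = 0.0607). AURKB, the catalytic subunit of the passenger complex, was at 1154 and 1165 in NC and at 1279 and 1259 in sh-IRF1. Both sh-IRF1 libraries were higher, but the gene did not pass the test (log2 fold change 0.13, SE 0.0631, adjusted p = 0.0924). The ratio of AURKA to AURKB counts was 1.37 and 1.33 in NC and 1.11 and 1.07 in sh-IRF1. Of the other passenger subunits, CDCA8 (borealin) fell (log2 fold change -0.23, adjusted p = 0.000674), while BIRC5 (survivin) had -0.074 and INCENP, the scaffold, had 0.0072, both with overlapping groups.

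Cyclins and CDK1 formed the role with the largest share of genes that fell, 4 of 6 (66.7%), against 21.9% of all tested genes. The role holds only 6 genes, and the difference between roles was not tested. CCNB2, CCNA2, CCNB1 and CDK1 were all lower, CDC25B rose and CDC25C did not pass the test, with a median of -0.28 over the 6. CCNB2 (chromosome 15 from 59105126 to 59125045), a B-type cyclin, was at 2115 and 2276 in NC and at 1574 and 1570 in sh-IRF1, 71.6% of the NC mean (log2 fold change -0.48, SE 0.0534, adjusted p = 2.10e-10, limma). Cyclin A2, the CDK partner of S phase and mitotic entry encoded by CCNA2, was at 3349 and 3640 in NC against 2884 and 2657 in sh-IRF1. That is 79.3% of the NC mean (log2 fold change -0.33, SE 0.0463, adjusted p = 4.67e-08, limma). In either gene the lowest NC library stood above the highest sh-IRF1 library.

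CCNB1, the main cyclin of mitotic entry, went from 3206 and 3211 to 2583 and 2667 (log2 fold change -0.29, adjusted p = 3.79e-07, limma), and CDK1 had -0.27 (adjusted p = 2.64e-06). Cyclin B2 counts relative to cyclin B1 counts were 0.660 and 0.709 in NC and 0.609 and 0.589 in sh-IRF1. The phosphatase CDC25B, which starts CDK1 activation at mitotic entry, was at 2394 and 2484 in NC and at 2834 and 2750 in sh-IRF1, and thus rose where its target CDK1 and the cyclins fell (log2 fold change 0.20, SE 0.0462, adjusted p = 0.000508, limma). CDC25C, of the same family, had fewer reads (280 to 313 normalized counts over the 4 libraries) and overlapping groups (log2 fold change 0.0056, SE 0.125).

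Among the genes of mitotic exit, CDC20, PTTG1 and UBE2C fell and FZR1 and ESPL1 did not pass the test. CDC20, the mitotic activator of the APC/C and target of the checkpoint, was at 3944 and 3766 in NC and at 3324 and 3341 in sh-IRF1, 86.4% of the NC mean (log2 fold change -0.21, SE 0.0413, adjusted p = 4.04e-05, limma). FZR1, which encodes CDH1, the activator of late mitosis and the following interphase, was at 2452 and 2479 against 2405 and 2450 (log2 fold change -0.022, adjusted p = 0.737). The ratio of CDC20 to FZR1 counts was 1.61 and 1.52 in NC and 1.38 and 1.36 in sh-IRF1, with no overlap.

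Separase and its inhibitor were read apart. ESPL1, encoding separase, was at 1600 and 1696 in NC and at 1681 and 1647 in sh-IRF1, overlapping (log2 fold change 0.015, SE 0.0557, adjusted p = 0.858). PTTG1, encoding securin, had a log2 fold change of -0.19 (adjusted p = 0.0261, limma), which did not pass without sh-IRF1 replicate 2 (-0.10, adjusted p = 0.376) or NC replicate 1 (-0.15, adjusted p = 0.148), with total-count scaling (adjusted p = 0.0899) or with DESeq2 (0.0788). UBE2C, the ubiquitin-conjugating enzyme of the APC/C, had -0.13 (adjusted p = 0.0391, limma). That call was lost without NC replicate 1 (-0.075, adjusted p = 0.384), sh-IRF1 replicate 1 (-0.16, adjusted p = 0.0705) or sh-IRF1 replicate 2 (-0.11, adjusted p = 0.253), and, with all libraries, under total-count scaling (adjusted p = 0.178), no filter (0.0549) and DESeq2 (0.0933).

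The kinetochore stood closer to no change as a role, with a median of -0.015. Of its 9 genes 1 was lower, 1 was higher and 7 were not called. That is 11.1% in each direction, against 21.9% lower and 20.3% higher of all tested genes. Estimates ran from -0.19 to 0.54, and the SE from 0.0332 for CENPF to 0.104 for SPC24. Changes of equal size thus could not pass alike, and few calls do not show that the role was stable. SPC24 (chromosome 19 from 11131520 to 11155807), a subunit of the NDC80 complex that grips spindle microtubules, was at 368 and 355 in NC and at 495 and 562 in sh-IRF1, 146% of the NC mean (log2 fold change 0.54, SE 0.104, adjusted p = 2.76e-05, limma). Without sh-IRF1 replicate 2 the fold change was 0.45, under the limit of 0.5, and it passed the test with each library left out. The other subunits of that complex did not pass. NDC80 had -0.16 (adjusted p = 0.0694) and NUF2 -0.19 (adjusted p = 0.0531), with sh-IRF1 below NC, and SPC25, the direct partner of SPC24, had 0.14 (adjusted p = 0.304) with overlap.

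The ratio of SPC24 to SPC25 counts was 0.900 and 0.700 in NC and 0.984 and 1.13 in sh-IRF1, the widest spread between replicates of any pair given here. CENPE, the kinesin that moves chromosomes to the spindle equator, was at 1675 and 1701 in NC and at 1606 and 1459 in sh-IRF1 (log2 fold change -0.14, SE 0.0576, adjusted p = 0.0446, limma). It was the called gene closest to the threshold, and its call was lost without NC replicate 1 (-0.15, adjusted p = 0.068), NC replicate 2 (-0.13, adjusted p = 0.13) or sh-IRF1 replicate 2 (-0.071, adjusted p = 0.467). With all libraries kept it was also lost under total-count scaling (adjusted p = 0.177), no filter (0.063), limma that was not robust (0.051) and DESeq2 (0.111). KNL1, the platform for BUB1 and BUB3, had -0.015, its partner ZWINT 0.088, the centromeric histone CENPA 0.042 and the large coiled-coil protein CENPF -0.025, with adjusted p-values from 0.167 to 0.842.

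Spindle motors and microtubule proteins also varied little, apart from TPX2. TPX2 (chromosome 20 from 31739271 to 31801805), which activates Aurora A and nucleates spindle microtubules, was at 5305 and 5138 in NC and at 4467 and 4329 in sh-IRF1, 84.2% of the NC mean (log2 fold change -0.25, SE 0.0376, adjusted p = 3.58e-07, limma). KIF18A, a kinesin that dampens chromosome movement, was at 474 and 556 in NC and at 571 and 553 in sh-IRF1, overlapping (log2 fold change 0.13, SE 0.096, adjusted p = 0.287). KIF11 of spindle bipolarity, KIF20A and KIF23 of cytokinesis and the chromokinesin KIF4A had log2 fold changes from -0.072 to 0.03 and did not pass.

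For the last 2 genes of this role the reads say little. PRC1, the bundler of the spindle midzone, was listed at 17.4 and 11.3 in NC and at 16.9 and 12.2 in sh-IRF1 (log2 fold change 0.029, SE 0.551). It shares 61.9% of its exonic bases with other annotated genes, of which ENSG00000284946 on the same strand overlaps most. That partner was at 82.1 and 76.0 in NC and at 70.6 and 87.1 in sh-IRF1. NUSAP1, a microtubule-binding protein, was between 167 and 198 in the 4 libraries. It shares 86.8% of its exonic bases with other annotated genes, and the largest partner, ENSG00000285920, is not listed in the deposited table.

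Among condensin I and the chromosome proteins, SMC4, TOP2A and NCAPG fell, MKI67 rose, and SMC2, NCAPD2 and NCAPH did not pass the test, with a median of -0.11 over the 7. SMC4 (chromosome 3 from 160399274 to 160434954), an ATPase of condensin, was at 6824 and 7039 in NC and at 5453 and 5576 in sh-IRF1, 79.6% of the NC mean (log2 fold change -0.33, SE 0.0346, adjusted p = 4.37e-11, limma). SMC2, with which it forms the condensin core, was higher in both sh-IRF1 libraries but did not pass (log2 fold change 0.063, adjusted p = 0.23). The ratio of SMC4 to SMC2 counts was therefore 2.07 and 2.11 in NC and 1.59 in both sh-IRF1 libraries. Other annotated genes share 22.0% of the SMC4 exonic bases, and the largest partner, the antisense gene TRIM59, had between 269 and 309 normalized counts.

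Of the condensin I regulatory subunits, NCAPG fell (log2 fold change -0.27, adjusted p = 1.87e-05, limma), NCAPH had -0.11 (adjusted p = 0.103) and NCAPD2 had -0.0067 with overlap. NCAPG shares 33.7% of its exonic bases with other annotated genes. The largest partner is the antisense gene LCORL, whose log2 fold change was also -0.27 (adjusted p = 0.0474, limma). LCORL was at 401 and 417 in NC and at 366 and 312 in sh-IRF1, while NCAPG went from 2198 and 2131 to 1763 and 1817. TOP2A, the topoisomerase that untangles sister chromatids, fell from 12826 and 12807 to 10613 and 10738 (log2 fold change -0.26, SE 0.0285, adjusted p = 9.98e-11, limma).

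MKI67, whose product Ki-67 coats mitotic chromosomes and is the usual stain for cycling cells, went the other way. It was at 10615 and 10804 in NC and at 11868 and 11962 in sh-IRF1, 111% of the NC mean (log2 fold change 0.15, SE 0.0289, adjusted p = 1.90e-05, limma). FOXM1, the transcription factor that activates many of these genes late in the cycle, was at 2440 and 2372 in NC and at 2922 and 2868 in sh-IRF1, 120% of the NC mean (log2 fold change 0.27, SE 0.0457, adjusted p = 3.79e-06, limma). Both genes stood higher in each sh-IRF1 library than in either NC library. Other annotated genes share 15.9% of the FOXM1 exonic bases. The largest partner, the antisense gene ITFG2, was at 408 and 342 in NC and at 396 and 444 in sh-IRF1.

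Count ratios were computed for 7 pairs of partners or family members, 6 of them given above. The pairs were not among the results planned beforehand, and the numerator of each was a gene that had passed the test in these same libraries. All 7 ratios differed without overlap between the groups, which is therefore no further support. Of all tested genes, 35.0% were without overlap in the lower direction and 34.2% in the higher. These shares are for single genes and not for ratios, so they give no baseline for the pairs. Each pair had an exact two-sided permutation p of 0.33, the smallest the design allows. The remaining pair was BUB3 to BUB1, at 1.69 and 1.74 in NC and at 1.30 and 1.37 in sh-IRF1. Ratios within a library do not depend on its size factor, so these differences hold under every scaling.

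Per kilobase of exon, the NC mean of normalized counts was highest for TOP2A at 2011, followed by CDC20 at 1916 and UBE2C at 1567. The lowest levels per kilobase were those of PRC1 at 2.60, NUSAP1 at 50.6 and CDC25C at 89.1. All 3 genes with the highest level per length fell, though the UBE2C call was lost under several alternatives. The 3 with the lowest did not pass the test, and SPC24 and MAD1L1, with the 2 largest rises, lay between these groups at 127 and 253. Few reads also widen the error: the SE was 0.551 for PRC1, 0.160 for NUSAP1 and 0.125 for CDC25C, against 0.0285 for TOP2A. A link between level and direction was not tested.

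**Figure D3:**
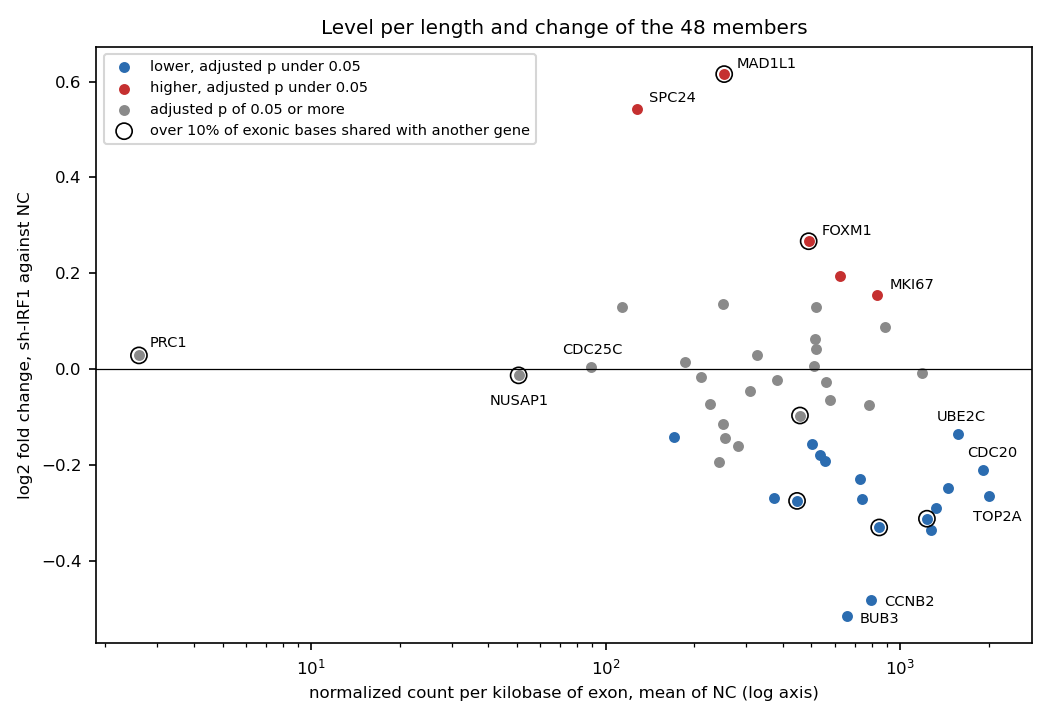
NC mean of normalized counts per kilobase of exon (horizontal, log axis) against the log2 fold change, sh-IRF1 against NC, of the 48 genes (vertical); colours give the limma call and rings mark the 8 genes with over 10% of exonic bases shared. BUB3 and CCNB2 are lowest on the vertical axis, MAD1L1 and SPC24 highest, and PRC1 stands apart at the left at 2.60.

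Further genes of mitosis were read from 7 lists of 107 genes, of which LIN37 did not pass the filter on low values. Of the 106 tested, 29 (27.4%) fell and 16 (15.1%) rose, 42.5% together against 42.2% of all tested genes, with a median log2 fold change of -0.035. Scaling to the total count gave 24 lower and 22 higher, and without sh-IRF1 replicate 2 the higher genes numbered 10. Total-count scaling called 6078 of 14182 tested genes in either direction, and shares of all genes by direction were not computed under it. The partners of the outer kinetochore and checkpoint had 7 of 17 (41.2%) lower and 1 (5.88%) higher, against 21.9% and 20.3% of all tested genes (median -0.099). They were led by SKA2 of the SKA complex, at 1488 and 1506 in NC against 1170 and 1054 in sh-IRF1 (-0.43, adjusted p = 1.88e-07, limma). TRIP13, the ATPase that takes the checkpoint complex apart, was the 1 higher (0.13, adjusted p = 0.0355, limma). Its call was lost without NC replicate 1 (0.10, adjusted p = 0.192), sh-IRF1 replicate 1 (0.12, adjusted p = 0.155) or sh-IRF1 replicate 2 (0.14, adjusted p = 0.115), with no filter (0.058) and with DESeq2 (0.0804). MIS12, the linker between inner and outer kinetochore, was at 337 and 404 in NC and at 207 in both sh-IRF1 libraries (-0.83, adjusted p = 7.68e-07). MIS12 was named after its values were seen.

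Of the inner kinetochore genes 3 of 19 (15.8%) fell and 4 (21.1%) rose, near the 21.9% and 20.3% of all tested genes (median 0.044). CENPU was at 1211 and 1242 in NC and at 879 and 864 in sh-IRF1 (-0.49, adjusted p = 4.51e-08, limma), and CENPX at 377 and 338 in NC and at 518 and 537 in sh-IRF1 (0.56, adjusted p = 1.62e-05). Of the APC/C subunits and their inhibitor 5 of 16 (31.25%) fell and 3 (18.75%) rose, against the same 21.9% and 20.3% (median -0.13). The scaffold subunit ANAPC5 had -0.23 (adjusted p = 1.57e-06, limma) and the cullin subunit ANAPC2 0.34 (adjusted p = 6.44e-05, limma). In condensin II, NCAPH2 rose (0.40, adjusted p = 2.62e-07, limma) and the other 2 of its 3 regulatory subunits did not pass the test. Other annotated genes share 27.2% of the NCAPH2 exonic bases.

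Further motors and spindle proteins had 7 of 22 (31.8%) lower and 4 (18.2%) higher, against 21.9% and 20.3% of all tested genes (median 0.012). KIF2A, a microtubule-depolymerizing kinesin, was at 1894 and 1997 in NC and at 1284 and 1250 in sh-IRF1 (-0.62, adjusted p = 9.79e-13, limma), and NUMA1, which anchors microtubules at the poles, at 3031 and 3100 in NC and at 4349 and 4165 in sh-IRF1 (0.47, adjusted p = 1.70e-13). Shared exonic bases came to 21.3% for KIF2A and 27.3% for NUMA1. Of the kinases and phosphatase regulators of mitotic entry and exit 6 of 17 (35.3%) fell and 1 (5.88%) rose, against the same shares of all tested genes (median -0.13).

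PPP1CC, a catalytic subunit of protein phosphatase 1, which acts at kinetochores and in mitotic exit, changed more than any of the 48 genes. It was at 5156 and 5033 in NC and at 2063 and 1975 in sh-IRF1, 39.6% of the NC mean (log2 fold change -1.33, SE 0.0429, adjusted p = 3.48e-29, limma). The gene that rose in this list was PKMYT1, the kinase that holds CDK1 inactive (0.28, adjusted p = 5.85e-07), with 31.9% of its exonic bases shared.

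Of the MuvB and DREAM genes, whose complexes bind CHR elements, 1 of 12 tested (8.33%) fell and 2 (16.7%) rose, against 21.9% and 20.3% of all tested genes (median 0.066). TFDP1, the DNA-binding partner of E2F factors, had -0.23 (adjusted p = 1.38e-07, limma) and MYBL2 0.15 (adjusted p = 1.16e-04). For comparison with another phase of the cycle, 5 of 22 S phase genes fell and 5 rose, with a median of 0.021. That is 22.7% each, near the 21.9% and 20.3% of all tested genes. With total-count scaling 2 fell and 10 rose, and shares of all genes by direction were not computed under it. The lower S phase genes numbered 2 without sh-IRF1 replicate 2 and 3 without either NC replicate, and the higher ones 3 without NC replicate 1. MCM6 of the replicative helicase was at 7063 and 6996 in NC and at 5313 and 5210 in sh-IRF1 (-0.42, adjusted p = 3.05e-14), and RRM2 of ribonucleotide reductase at 2891 and 2813 in NC and at 4422 and 4571 in sh-IRF1 (0.66, adjusted p = 2.91e-18). No test of the difference between the lists was made.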

How the data were processed

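Total RNA of MV4-11 cells was sequenced by a service company. The submitters' processing notes name HISAT2 2.0.5 and hg38; the counting tool, annotation and use of strand are not given in the sources used here. The authors deposited a normalized signal (per gene, its reads over the size factor of the library) for 23622 Ensembl identifiers, of which 23456 were given symbols from a table of gene names. Within a tolerance of 0.001 of a read, 100% of the values were whole multiples of 1 read's worth, so reads were recovered. There were 0 other columns of per-sample values. Depth was 17635908 to 18695337 reads per library, mitochondrial genes took 3.92% to 4.51% of them, and replicates differed by more than sampling noise (chi-square per gene 2.52 in NC and 2.37 in sh-IRF1).

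The 2 NC and 2 sh-IRF1 libraries were compared with limma 3.58.1 (R 4.3.3, variance trend, robust, 43 prior degrees of freedom) on log2(value + 1), for the 14120 genes that reached a value of 10 in 2 or more libraries, with Benjamini-Hochberg adjustment over all of them. This scale understates changes of low genes. Alternatives were TMM, upper-quartile and total-count scaling, no filter, pseudocounts of 0.5 and 5, a fit that was not robust, edgeR 4.0.16 and DESeq2 1.42.0 on recovered reads, a replicate block, and leaving out each library. The scripts were tested on simulated data. Coordinates, lengths and shared exonic bases are from GENCODE 44 on GRCh38, and promoters from RefSeq on GRCh38.p14.

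The members and lists were chosen with earlier results of these data known. Every library is given for members with an adjusted p under 0.05 and an absolute log2 fold change of at least 0.3, and for the smallest p per direction within a role; of other lists the called gene with the smallest p per direction is named. Values of every library for further members, and MIS12, were added after values were seen. Reads of named pseudogene copies came to at most 1.42% of a member's own.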

Additional observations from a re-analysis of the deposited data

How the results depend on the processing

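The 23 calls kept their direction under all 14 alternatives. In 21 of 322 cases a call missed the threshold, always for AURKA, BUB1, CENPE, PTTG1 or UBE2C, so that the other 18 members were called under every alternative. In 13 cases a member not called passed: NUF2 in 5, ZWINT in 2, and AURKB, SMC2, BUB1B, KIF11, NDC80 and SPC25 in 1 each. Lowered members numbered 14 to 19 and raised members 5 with every alternative that kept all libraries, except total-count scaling, which raised 8; DESeq2 lowered 15 and edgeR 19. With a library left out, 13 to 19 were lower and 5 to 6 higher, with 13 lower without sh-IRF1 replicate 2. Total-count scaling, which moved the median of all genes to 0.043, left 0 members lower beyond a log2 fold change of 0.5 (BUB3 at -0.47) and gave medians of -0.029 for the members, -0.10 for the checkpoint, -0.082 for kinases and passenger complex, -0.24 for cyclins, 0.015 for motors and -0.069 for condensin. Under it FZR1 (0.022), KNL1 (0.029), CENPF (0.019), NUSAP1 (0.032) and NCAPD2 (0.038) changed sign; none was called. With each library left out, members lower beyond 0.5 numbered 0 to 2 and higher 1 to 2, other mitotic genes higher 10 to 17, and medians ran from -0.12 to -0.074 for members, -0.20 to -0.10 for the checkpoint, -0.17 to -0.086 for kinases, -0.070 to 0.011 for motors and -0.024 to 0.018 for the kinetochore. The sign of these uncalled genes depended on a library: INCENP (-0.061 to 0.076), CDC25C (-0.073 to 0.084), ESPL1 (-0.027 to 0.056), SPC25 (-0.019 to 0.29), KNL1 (-0.082 to 0.052), KIF11 (-0.13 to 0.0054), KIF4A (-0.026 to 0.085), PRC1 (-0.26 to 0.32), NUSAP1 (-0.13 to 0.11) and NCAPD2 (-0.024 to 0.010). The replicate numbers did not pair the libraries (correlation of deviations -0.015 over 14120 genes), and with the replicate block 19 members were lower and 5 higher, with NUF2 added. The causes were not tested. With 2 libraries a group, the spread of a single gene is poorly known and calls rest on the spread shared across genes.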
